A study of Mus musculus with 5 samples.

Results

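Single-bin assembled transcripts are the loci of a transcript assembly that were counted as 1 undivided stretch of exon in mouse embryonic stem cells. They were taken as the genes of the exon count table whose name starts with MSTRG. and that have exactly 1 bin, E001. The rule uses names and bin numbers only and no measured value. It found 1009 of the 13683 assembly IDs (7.37%), in a table of 24538 genes and 243715 bins without spike-ins. The other 12674 assembly IDs have 2 or more bins.

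Polyadenylated RNA was sequenced from mouse embryonic stem cells, which are pluripotent cells of the early embryo kept in culture, in 5 libraries. By genotype label, wildtype 1 to 3 are wildtype cells (3 libraries), and deleted 1 and 2 have the -45 SE deleted (2 libraries). The series title places this super-enhancer, a dense cluster of enhancers, in the regulation of the pluripotency gene Nanog. The treatment label names 6 days of ethanol, the vehicle, or tamoxifen (4OHT) for all libraries, without saying which library received which. The labels give no strain, clone or culture of origin, so the p-values cover the spread among these 5 libraries alone, and that spread may be technical. The design text gives 3 replicates for each condition, while the deleted group analysed here has 2.

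Transcript assembly joins overlapping read alignments into transcript models without needing a reference annotation, and numbers each locus. Counting by bins then cuts the exons of a locus wherever its transcripts differ. A locus with a single bin therefore has 1 exon in a single form, as unspliced transcripts have. Such models can come from intronless genes, from unspliced noncoding RNA, or from pieces of longer transcripts. The table gives neither a symbol, a position nor a length for these IDs, so no identity or sequence is given for a member. Because lengths were not used, normalised read counts (CPM, counts scaled to a common library size) describe how many reads stand behind a member, not how its expression ranks against another gene.

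Bin counts totalled 93574214 to 213042064 per library, and 1 count was worth 0.00463 to 0.0107 CPM. Wildtype 3 was the deepest library and stood apart from wildtype 1 and 2. Over tested single-bin members outside the consecutive IDs numbered 1 to 36 (described below), chi-square per degree of freedom was 3.41 between wildtype 1 and 2. Wildtype 3 gave 20.8 against wildtype 1 and 15.8 against wildtype 2, and the deleted pair gave 9.23. All 4 values exceed the value of 1 that counting noise alone would give, so no pair was treated as 1 library. None of the 10 embryonic stem cell markers listed had a row under its symbol, so the labelled cell type and the targeted locus were not checked against their own genes. Of the 7 tested fibroblast markers 5 were higher in the deleted cells and 0 lower. Their summed level over the 9 markers with rows was 13.5 to 13.6 CPM in deleted and 9.12 to 12.6 CPM in wildtype libraries, and its part in the results was not tested. Of the 7 primitive endoderm markers, all tested, 3 were lower and 0 higher. Over all tested genes, 19.9% were higher and 19.6% lower at the same threshold, which is given below.

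Most single-bin members had few counts. In 188 of the 1009 (18.6%), no library held a count, against 0.694% of the assembly IDs of 2 or more bins. Another 235 held 1 to 9 counts over the 5 libraries together. The median member had 4 counts in wildtype 2, deleted 1 and deleted 2, 5 in wildtype 1 and 9 in wildtype 3. At the upper end, 103 to 147 members per library held 1000 counts or more. The 10 most counted members took 41.5% of all member counts and the 50 most counted took 77.7%.

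The number of members with a count overlapped between groups once depth was equal. It was 667, 655 and 740 in wildtype 1, 2 and 3, while deleted 1 had 663 and deleted 2 had 652. Scaled down to the smallest library, the expected numbers were 644, 641 and 670 for wildtype, and 663 and 648 for deleted cells. Counted in wildtype only were 96 members, none with more than 9 counts in all, and counted in deleted only were 34, none with more than 3. The wildtype libraries together hold 453063966 counts and the deleted libraries 192708097. A difference in presence was therefore not detectable at this depth for these members.

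Single-bin members held under 1% of each library. They took 0.818%, 0.752% and 0.680% of the counts in wildtype 1, 2 and 3, while deleted 1 had 0.816% and deleted 2 had 0.810%. The groups overlapped, with the share lowest in wildtype 3. The mean share was 0.750% ± 0.0692 for wildtype (SD, n = 3) and 0.813% ± 0.00356 for deleted cells (SD, n = 2), a difference of 0.0630 percentage points that is within the wildtype spread. It was 0.0280 without wildtype 3, 0.0972 without wildtype 1 and 0.238 with each gene represented by its most counted bin, which makes the totals smaller. Without the members numbered 1 to 36, the share was 0.607% and 0.594% in deleted and 0.531% to 0.581% in wildtype libraries. The groups then did not overlap, with a difference of 0.038 percentage points against a wildtype SD of 0.0278. Setting these members aside was decided after the data were seen.

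Of the 1009 members, 470 (46.6%) had enough counts for a test, against 96.2% of the assembly IDs of 2 or more bins. The 539 untested members held only 0.0776% of member counts. The low-count filter asked for 0.0871 CPM in at least 2 libraries, which 433 of the tested members met in both groups. It was met only in the deleted libraries by 7 members, of which 6 passed as higher, and only in wildtype by 26, of which 1 passed as lower. A member can enter the test through 1 group because it is high there, so the calls among the 433 are also given below.

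In the deleted cells 74 single-bin members were higher and 57 lower, together 131 of 470 tested (27.9%) at adjusted p under 0.05 (edgeR quasi-likelihood test with Benjamini-Hochberg adjustment over all 16259 tested genes). Over all tested genes 39.5% passed, 19.9% as higher and 19.6% as lower. The members' share was thus below that background, and it was 28.6% (68 higher and 56 lower) among the 433. Outside the members numbered 1 to 36, 30.2% of 434 passed, and 31.2% of those that met the filter in both groups. The CPM values of the 2 groups did not overlap in 241 members (51.3%), against 63.2% of all tested genes. In all 131 called members the groups did not overlap. The number of called members depended on both deleted libraries, since 60 passed when deleted 1 was left out and 73 when deleted 2 was, fits in which the single remaining deleted library is taken to vary as the wildtype libraries do.

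Changes were modest in most members. The median log2 fold change (deleted minus wildtype) over the 470 was 0.02 and its quartiles were −0.31 and 0.26. Over all tested genes the median was 0.01. The median size of the change regardless of direction was 0.28 on the log2 scale, against 0.26 over all genes and 0.23 over the assembly IDs of 2 or more bins. Higher members had a median log2 fold change of 0.55 and lower ones −0.61. Past the threshold and changed by over 2-fold were 15 higher and 12 lower members, or 5.74% of those tested. That share was 6.08% over all tested genes and 3.69% over the IDs of 2 or more bins.

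**Figure D1:**
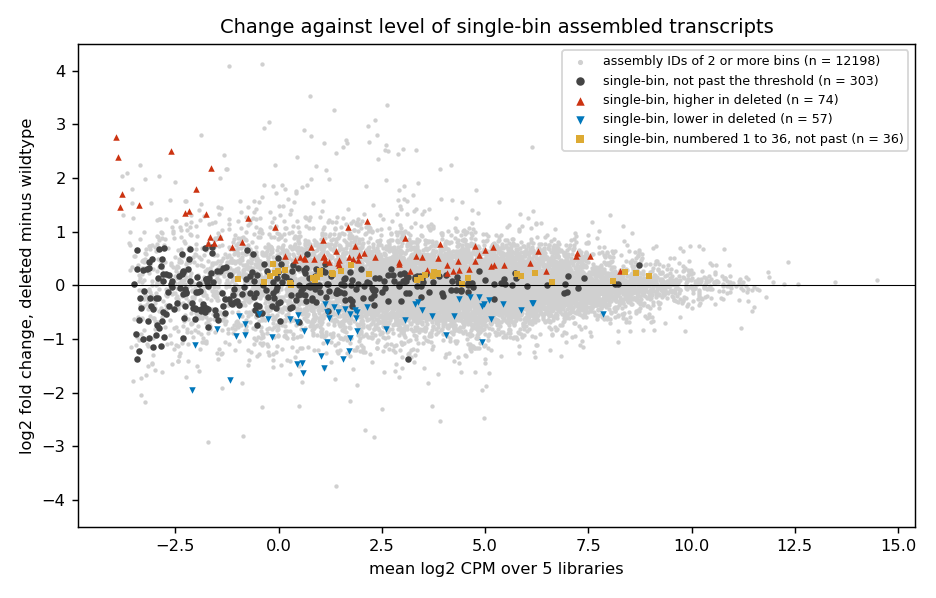
Log2 fold change (deleted minus wildtype) against mean log2 CPM over the 5 libraries for each tested assembly ID. Grey points are IDs of 2 or more bins, triangles the 74 higher and 57 lower single-bin members, dark circles members not past the threshold, and squares the 36 members numbered 1 to 36, which lie between 0.007 and 0.39.

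The 2 named rises came from a rule that takes the largest changes among called members whose groups do not overlap and whose mean log2 CPM is 1 or more, which 48 higher and 39 lower members met. MSTRG.1291 stood at 2.93, 2.68 and 3.16 CPM in wildtype 1, 2 and 3 and at 6.93 and 6.51 CPM in deleted 1 and 2. Both deleted libraries lay above every wildtype library, on 306 to 682 counts per library. The change was 1.20 ± 0.0978 (SE) on the log2 scale (edgeR adjusted p = 0.000160), 2.30-fold in mean CPM. MSTRG.1342 stood at 2.31, 2.23 and 2.13 CPM in wildtype and at 4.45 and 5.02 CPM in deleted libraries. The wildtype values differed little among themselves, and the groups did not overlap. The change was 1.09 ± 0.0988 (SE) on the log2 scale (edgeR adjusted p = 0.000234).

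MSTRG.8988 and MSTRG.492 were the largest falls by the same rule. MSTRG.8988 stood at 2.84, 2.76 and 2.78 CPM in wildtype 1, 2 and 3 and at 1.01 and 0.919 CPM in deleted 1 and 2. Both deleted libraries, on 94 and 91 counts, lay below every wildtype library. The change was −1.53 ± 0.113 (SE) on the log2 scale (edgeR adjusted p = 0.000109), and mean CPM was 2.90-fold higher in wildtype cells. MSTRG.492 stood at 3.88, 3.67 and 3.91 CPM in wildtype and at 1.39 and 1.56 CPM in deleted libraries. The change was −1.37 ± 0.107 (SE) on the log2 scale (edgeR adjusted p = 0.000136), again without overlap between groups.

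The 2 most counted members that did not pass varied among the wildtype libraries. MSTRG.30 stood at 631, 433 and 372 CPM in wildtype 1, 2 and 3 and at 528 and 560 CPM in deleted 1 and 2. Both deleted values lay inside the wildtype range. Its log2 fold change of 0.18 ± 0.194 (SE) had an edgeR adjusted p of 0.488, and its size turned on the wildtype libraries kept. It was 0.42 without wildtype 1 (edgeR adjusted p = 0.0149), 0.02 without wildtype 3 (0.897) and 0.06 with the replicate number as a block (0.685). MSTRG.4068 stood at 415, 423 and 299 CPM in wildtype and at 491 and 490 CPM in deleted libraries. Here the groups did not overlap and wildtype 3 was the lowest. Its log2 fold change of 0.37 ± 0.139 (SE) had an edgeR adjusted p of 0.0663, and without wildtype 3 it was 0.22 with 0.00297.

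**Figure D2:**
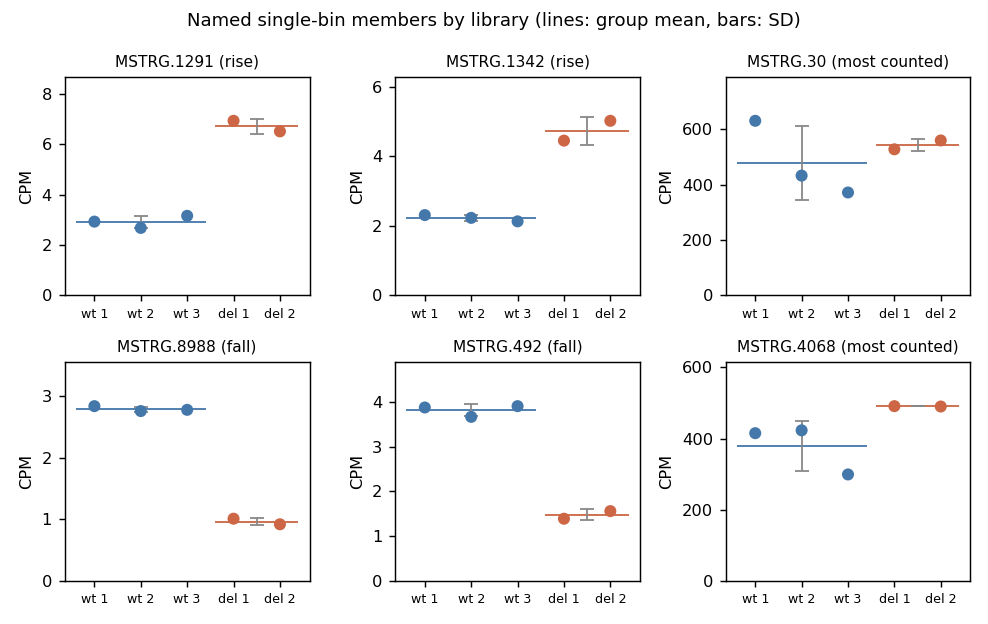
CPM of the 6 named members in each library (wt, wildtype; del, deleted), with lines at group means and bars of 1 SD. The 2 rises and 2 falls separate the groups, whereas MSTRG.30 spans 372 to 631 CPM among wildtype libraries.

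At the top of the range, 19 called members reached a mean log2 CPM of 5. Of these 12 rose and 7 fell in deleted cells, with log2 fold changes from −0.63 to 0.72. The 21 called members with a mean log2 CPM under −1 comprised 16 higher and 5 lower, and the largest log2 fold change of any called member was 2.76. Of the 16, 6 met the count filter only in the deleted libraries, where no such member exceeded 34 counts in a library. The member with 2.76 is among these 6, so both their number and this size are partly set by the filter. The largest log2 fold change among called members that met the filter in both groups was 2.18.

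The deleted libraries differed from each other in 1 member far more than in the rest. MSTRG.11099, singled out after its values were seen, stood at 13.9, 12.1 and 8.77 CPM in wildtype 1, 2 and 3, at 0.622 CPM in deleted 1 and at 8.22 CPM in deleted 2. These values rest on 58 counts in deleted 1 and 814 in deleted 2. Deleted 2 lay just under wildtype 3, while deleted 1 was 13.2-fold below deleted 2. The threshold was not passed, with a change of −1.38 ± 0.727 (SE) on the log2 scale (edgeR adjusted p = 0.170). Among the 223 members whose mean log2 CPM was at least 1, the deleted libraries differed by a median of 0.0827 on the log2 scale, and MSTRG.11099 alone differed by over 1.

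The assembly IDs numbered 1 to 36 were all single-bin and all tested, and moved together across libraries. This set was noticed in the data and is described without a test of its own. It forms the longest run of consecutive single-bin numbers in the table, and the next is of 23. The table does not state what the numbers stand for. The 36 members range from 0.510 to 505 CPM in their mean over libraries and hold 25.0% of all member counts, with 4 of them among the 10 most counted. All 36 were lowest in wildtype 3 and 30 were highest in wildtype 1. Among the 434 other tested members, 27.6% were lowest in wildtype 3 and 17.7% highest in wildtype 1.

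Relative to wildtype 2, the median of the 36 was 0.48 higher in wildtype 1, 0.28 higher in deleted 1 and 0.33 higher in deleted 2 on the log2 scale, while wildtype 3 had −0.24. Level in wildtype 3 was 0.600 of that in wildtype 1 at the median (range 0.353 to 0.858). The deleted libraries both lay between wildtype 3 and wildtype 1 in 30 of the 36. Log2 fold changes ran from 0.007 to 0.39 with a median of 0.20, and the lowest was −0.01 with DESeq2. With edgeR 0 of 36 passed (adjusted p = 0.117 to 0.987), with 0 at an unadjusted p under 0.05 and 0 passing with limma-voom or DESeq2. Without wildtype 1, 22 of the 36 passed as higher and the median log2 fold change was 0.40. Without wildtype 3 the median was 0.03, and 0 passed with edgeR, limma-voom or DESeq2, also 0 at an unadjusted p under 0.05 with each, so the value for these members depends on which wildtype library is kept.

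**Figure D3:**
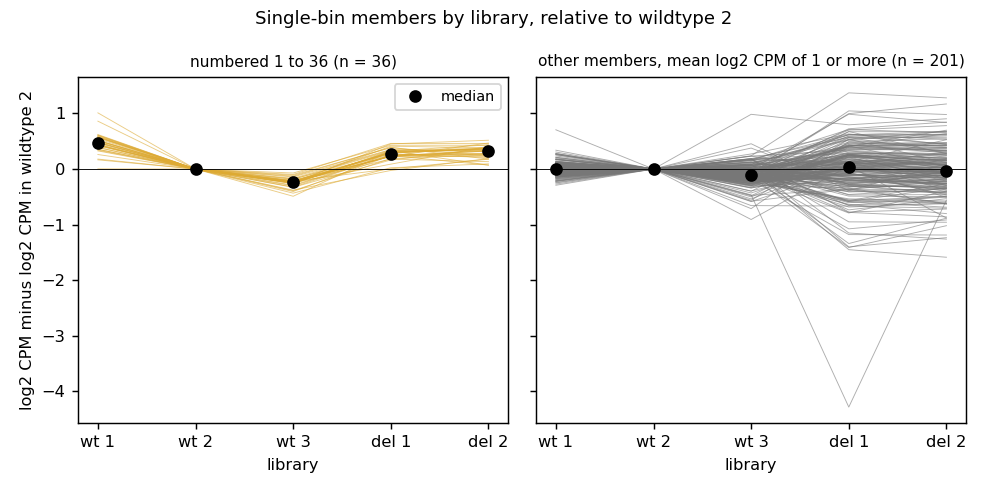
Log2 CPM in each library minus that in wildtype 2, 1 line per member, for the members numbered 1 to 36 and for the other members whose mean log2 CPM was at least 1 (wt, wildtype; del, deleted; black points, medians). The 36 lines are all lowest in wildtype 3 and spread most in wildtype 1, from 0 to 1.01, whereas the other members spread in both directions in the deleted libraries; the deepest line there is MSTRG.11099.

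The rows named for spike-in RNA, external transcripts added in known amounts, ordered the libraries in the same way. The 56 spike-in names held 5.08, 3.68 and 3.20 CPM in wildtype 1, 2 and 3, while deleted 1 had 4.22 and deleted 2 had 4.84 CPM, on 395 to 682 counts per library. The share of counts on the members numbered 1 to 36 was 0.241%, 0.171% and 0.149% for wildtype 1, 2 and 3, and for deleted 1 and 2 it was 0.208% and 0.216%. Both were highest in wildtype 1, then deleted 2, deleted 1, wildtype 2 and wildtype 3. As a ratio to wildtype 1, the spike-ins stood at 0.630 in wildtype 3 (exact 95% interval 0.565 to 0.703, counting error only) and the members at 0.618. In wildtype 2 these ratios were 0.725 (0.640 to 0.821) and 0.708. In deleted 1 they were 0.831 (0.731 to 0.944) and 0.863, and in deleted 2 they were 0.953 (0.845 to 1.07) and 0.895. Whether the spike-in level has a part in the profile of these members was not tested. The sources used here do not state whether these 36 are transcripts of the cells.

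Runs of consecutive single-bin numbers elsewhere were short or thinly counted. Of 824 runs, 740 were a single member and 9 had 5 or more. The run of 23, numbered 7551 to 7573, held 869 counts in all, with 4 members tested, of which 3 passed as higher. Of these 3, MSTRG.7558 met the count filter only in the deleted libraries. The runs numbered 4066 to 4070 and 4117 to 4122 held 350640 and 19254 counts, and 1 of 5 and 2 of 6 tested members passed, all as higher. The run numbered 4108 to 4112 had 1 higher and 1 lower among 5 tested. These are too few members to set against the background of 39.5%.

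Changes of single-bin members outside 1 to 36 went with those of IDs of the next lower or higher number. Over 602 pairs of a tested member and a tested ID of 2 or more bins with consecutive numbers, Pearson's r of the log2 fold changes was 0.30 and Spearman's rho 0.26. For pairs within the IDs of 2 or more bins, each pair was entered from both of its ends. Over these 17848 entries, r was 0.36 and rho 0.31. Where both partners had a mean log2 CPM of 1 or more, r was 0.39 in each kind of pair (241 pairs, and 13974 entries from both ends). These correlations are across genes within the same 5 libraries, and genes are not independent replicates.

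The nearest class outside the rule is the assembly IDs of exactly 2 bins. Of 773 such IDs 720 were tested, and 135 were higher and 169 lower, together 42.2%. This share was above the 27.9% of single-bin members and the 30.2% of those outside 1 to 36, differences that were not tested. The IDs of 2 bins had a median log2 CPM of 1.34, against 0.85 for the single-bin members, and a median size of change of 0.37 against 0.28. Shares past the threshold were 42.4% for 2 to 5 bins, 44.1% for 6 to 20 bins and 35.3% for over 20 bins. Gene symbols with 1 bin passed in 20.7% of 184 tested, at a median log2 CPM of −1.78. Without wildtype 3, 34.4% of the single-bin members and 56.7% of the IDs of 2 or more bins passed.

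Shares past the threshold also depended on level, and in 4 of the 5 bands of mean log2 CPM the members had the lower share. At a mean log2 CPM of −1 to 1, 23.2% of 99 single-bin members outside 1 to 36 passed, against 43.1% of 926 IDs of 2 or more bins and 42.9% of 231 IDs of 2 bins. Median standard errors there were 0.172 and 0.166 for the first pair of classes, and median sizes of change were 0.29 and 0.43 on the log2 scale. Under −1 the shares were 15.7% of 134 and 19.7% of 557. From 1 to 3 they were 41.9% of 93 and 49.1% of 2037, and from 3 to 5 they were 42.6% of 68 and 45.5% of 3669. At 5 and over the members had the higher share, with 47.5% of 40 members against 39.3% of 5009 IDs. With the 36 included, that last share was 39.6% of 48.

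A sum over bins can hold 1 read more than once where a read spanning several bins is added to each. How reads were added is not given in the sources used here and was not measured. The comparison was repeated with every bin as a feature of its own, over 151650 tested bins, of which 17.8% passed. In this fit 62 members were higher and 49 lower, together 23.6% of 470, and all 111 were also called with counts summed per gene. Of 139820 bins of longer assembly IDs 18.3% passed. The members' share was thus above that of single bins of longer IDs and below that of whole longer IDs, and neither difference was tested. The size of the gap differed between bands of mean log2 CPM. For members outside 1 to 36 and bins of longer IDs, the shares were 14.9% and 10.1% under −1, 19.2% and 16.7% at −1 to 1, and 38.7% and 23.6% at 1 to 3. They were 29.4% and 25.9% at 3 to 5, and 40.0% of 40 against 20.1% of 5045 at 5 and over. Bins of 1 gene are not independent of each other. Leaving out deleted 1 left 34 members past the threshold, and leaving out deleted 2 left 46.

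**Figure D4:**
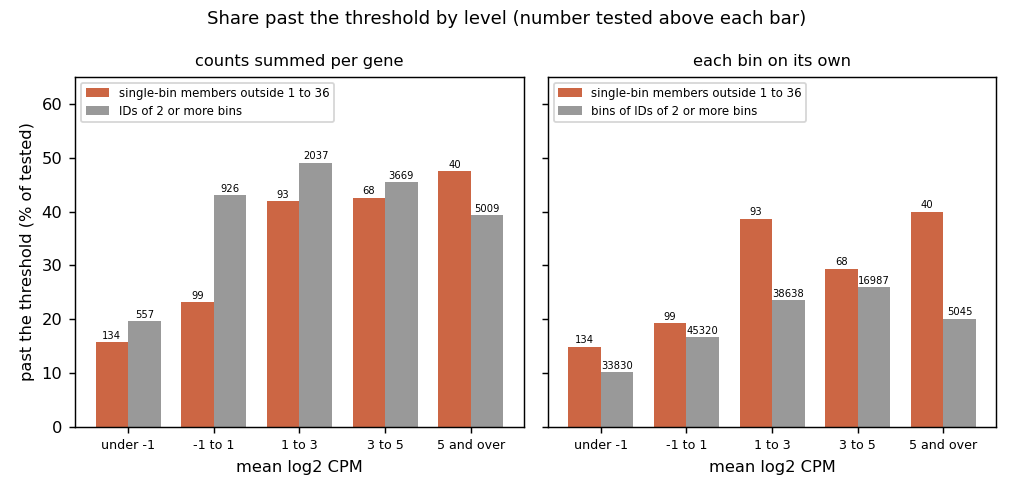
Share of tested features past adjusted p under 0.05 by band of mean log2 CPM, for counts summed per gene and for each bin on its own, with the number tested above each bar. Single-bin members outside 1 to 36 lie at 23.2% against 43.1% for longer IDs at −1 to 1 with summed counts, and at 40.0% against 20.1% for their bins at 5 and over.

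Spread between libraries of a group was compared as a description, with no test. Over all tested members, the median coefficient of variation of CPM was 10.7% among wildtype and 7.50% between deleted libraries, against 6.35% and 3.84% for IDs of 2 or more bins. Outside 1 to 36 the members' median was 9.78% among wildtype and 7.83% between deleted libraries. Within bands of mean log2 CPM the order of the classes was mixed. In wildtype, members outside 1 to 36 and longer IDs had 21.4% and 21.3% under −1, 11.2% and 11.4% at −1 to 1, and 7.15% and 6.92% at 1 to 3. They had 5.51% and 5.85% at 3 to 5, and 6.07% and 5.55% at 5 and over. The 36 members numbered 1 to 36 stood apart with 26.4% among wildtype and 3.25% between deleted libraries.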

How the data were processed

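Per the file headers and labels, the authors deposited 1 table of whole-number read counts per exon bin for 5 libraries. The submitters' processing notes name STAR and the mouse build mm9. No STAR version, annotation, counter or strand setting is given in the sources used here, so reads of overlapping or antisense loci cannot be told apart. Rows of 56 spike-in names entered neither library sizes nor tests. The members numbered 1 to 36 entered both.

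Bin counts were summed per gene, filtered with edgeR's filterByExpr (minimum count 10, total 15), scaled by TMM and fitted with edgeR 4.0.16 in R 4.3.3 (quasi-likelihood test; limma 3.58.1 for limma-voom). Adjusted p under 0.05 was the threshold. Libraries held 93574214 to 213042064 counts. CPM use TMM-scaled library sizes. Named members are, among called members whose groups do not overlap and whose mean log2 CPM is 1 or more, the 2 that rose most and the 2 that fell most, and the 2 most counted members not past it. The members and lists were chosen with earlier results of these data known. A planned p for the members' summed share is not given.

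In simulated gene counts over 16101 genes, with changes placed in single-bin members, 52.2% of 1.5-fold, 83.3% of 2-fold and 88.9% of 4-fold changes were recovered, and 7.59% of 158 calls were false. Alternatives were other scalings and filters, DESeq2 1.42.0, limma-voom, a fold threshold, the most counted bin, a replicate block and leaving out each library.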

Additional observations from a re-analysis of the deposited data

How the results depend on the processing

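The 131 single-bin members called stayed within 1.5 times under the other scalings and filters, limma-voom, DESeq2 and the most counted bin (124 to 139). Tested against a fold change of 1.5, 19 of 470 members (4.04%) and 549 of 12198 IDs of 2 or more bins (4.50%) passed. Over all 16259 tested genes 814 passed. These 2 shares lay closer together than in the main fit, where they were 27.9% and 42.2%. With each bin on its own, 13 of 470 members (2.77%) and 2138 of all 151650 tested bins passed. With a library left out, members called ranged from 60 to 157, IDs of 2 or more bins from 2600 to 6898, and members with each bin on its own from 34 to 156, lowest without deleted 1 and highest without wildtype 3. With a wildtype library left out, 22.5% to 34.4% of members and 33.5% to 56.7% of IDs of 2 or more bins passed. With any library left out, the difference in the members' share of counts ranged from 0.0280 to 0.0972 percentage points. It was 0.238 with each gene's most counted bin, whose totals are smaller. With the replicate number as a block, which leaves wildtype 3 without a partner, 152 members (32.3%) and 6888 longer IDs (56.5%) passed. Over all tested genes 8250 then passed. With each bin on its own, 159 members (33.8%) and 47507 of all tested bins passed with the block. Same-numbered libraries deviated together with correlations of 0.05 and −0.05. The 2 deleted libraries deviate from their mean in mirrored ways, so these values are not independent and do not settle whether replicates were paired. The 4 named rises and falls kept their direction and call in all 13 alternatives each. MSTRG.4068 passed with the block (0.23; edgeR adjusted p = 0.00352), with DESeq2 (0.37; adjusted p = 0.0460) and without wildtype 3. Setting aside members numbered 1 to 36, and counting only members that met the filter in both groups (124 called), were chosen after seeing the data. Low counts limit the 539 untested members most.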
